A study of Mus musculus with 30 samples.

Results

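Atp2b1, Atp11b, Camk2g, Mapk9 and Aplp2 are 5 mouse genes of the neuronal membrane and its signalling: a calcium pump, a phospholipid flippase, 2 protein kinases and a relative of the amyloid precursor protein. They were selected on their inclusion differences between cKO and control neurons in these data, so those differences are a description and carry no test of their own. Taking every row with one of these gene symbols from the authors' 4 deposited splicing tables gave 61 of 6491 rows, which are 38 distinct events. Of these rows, 31 of 2682 came from the Emx1-Cre comparison, 21 of 1970 from the Gad2-Cre comparison, 3 of 603 from the Purkinje comparison and 6 of 1236 from the comparison of control neurons.

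The study compared splicing in neurons of C57BL/6J mice that lack the RNA-binding protein NOVA2 only where a Cre recombinase is active. Emx1-Cre Nova2 conditional knockout (cKO) neurons were set against neurons labelled wild-type with Emx1-Cre, and Gad2-Cre Nova2 cKO neurons against wild-type with Gad2-Cre, all sorted from cortex at embryonic day 18.5. The Purkinje cell layer of the cerebellum was dissected from Pcp2-Cre Nova2 cKO and wild-type Pcp2-Cre mice at postnatal day 28. Each of these 6 groups had 3 samples with ribosomal RNA removed, 18 of the series' 30. The other 12 samples were not analysed here. Emx1-Cre acts in the lineage of cortical excitatory neurons, Gad2-Cre in inhibitory neurons and Pcp2-Cre in Purkinje cells, so other cells of a sample keep the gene. The tables hold no expression levels, and cell-type markers were therefore not checked.

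NOVA proteins are neuronal splicing factors that bind clusters of short tetramers in precursor RNA (TCAT or TCAC, and likewise CCAT or CCAC, with U for T) and can raise or lower the use of a nearby exon, depending on where they bind. Plasma membrane calcium pumps such as the product of Atp2b1 (PMCA1) expel calcium from the cell, and their alternative exon at the carboxyl terminus alters the calmodulin-binding tail. Atp11b encodes a P4-ATPase, which moves phospholipids to the cytosolic leaflet of a membrane. Camk2g encodes the gamma subunit of calcium/calmodulin-dependent kinase II, whose splice variants differ in the linker between the kinase and the hub. Mapk9 encodes JNK2, which has mutually exclusive exons in its kinase domain, and Aplp2 encodes an amyloid precursor-like membrane protein.

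The alternative exons on which the results turn are shown here 5′ to 3′ on the sense strand, from the GENCODE M21 transcripts of build mm10. Capitals mark each of those 4 tetramers. The pump exon lies at chr10:99019278-99019431 (plus strand), the Atp11b exons at chr3:35841030-35841115 and chr3:35843571-35843696 (plus), and the Camk2g exons at chr14:20747819-20747851 and chr14:20745792-20745860 (minus). The Mapk9 pair lies at chr11:49873836-49873907 and chr11:49874264-49874335 (plus) and the Aplp2 exon at chr9:31156190-31156225 (minus).
Atp2b1, 154 nt exon: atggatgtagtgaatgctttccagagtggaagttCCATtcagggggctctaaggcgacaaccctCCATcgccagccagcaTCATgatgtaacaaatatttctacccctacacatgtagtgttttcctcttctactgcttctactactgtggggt
Atp11b, 86 nt exon: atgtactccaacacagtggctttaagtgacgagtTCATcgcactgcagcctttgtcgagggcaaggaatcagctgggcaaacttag
Atp11b, 126 nt exon: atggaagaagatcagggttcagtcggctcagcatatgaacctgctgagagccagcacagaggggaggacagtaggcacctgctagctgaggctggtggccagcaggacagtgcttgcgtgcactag
Camk2g, 33 nt exon: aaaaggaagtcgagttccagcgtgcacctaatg
Camk2g, 69 nt exon: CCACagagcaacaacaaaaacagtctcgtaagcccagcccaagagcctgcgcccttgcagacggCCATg
Mapk9, upstream 72 nt exon: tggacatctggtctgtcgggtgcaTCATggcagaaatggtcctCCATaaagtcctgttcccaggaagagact
Mapk9, downstream 72 nt exon: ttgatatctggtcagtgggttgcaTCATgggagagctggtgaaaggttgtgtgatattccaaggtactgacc
Aplp2, 36 nt exon: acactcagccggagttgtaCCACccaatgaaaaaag

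The number of tetramers was 3 in the Atp2b1 exon, 1 and 0 in the 86 and 126 nt exons of Atp11b, 0 and 2 in the 33 and 69 nt exons of Camk2g, 2 and 1 in the upstream and downstream exons of Mapk9 and 1 in the Aplp2 exon. Only the sense strand was searched, and overlapping matches were counted. The comparison set was internal exons of the same length in GENCODE protein-coding transcripts, whether or not the exon itself is translated. Of these, 52.1% of 803 held at least as many as the Atp2b1 exon and 26.2% of 1087 as many as the 69 nt Camk2g exon. As many as the upstream Mapk9 exon were held by 32.4% of 1282, and as many as the Aplp2 exon by 38.1% of 485. The shares were 73.6% of 953 for the 86 nt Atp11b exon and 68.8% of 1282 for the downstream Mapk9 exon. Of 758 listed cassette exons, 29.4% held at least as many as the Atp2b1 exon. For the 69 nt Camk2g and upstream Mapk9 exons that share was 47.2%, and for the Aplp2, 86 nt Atp11b and downstream Mapk9 exons 69.1%. For 3 exons, 200 nt of neighbouring intron could be read because a longer annotated transcript covers it. The intron before the Aplp2 exon held 4 in that window, and 42.7% of 9322 such windows held at least as many. The intron before the Atp2b1 exon held 2, and 82.5% of those windows held at least as many. The intron after the downstream Mapk9 exon held 4, and 40.2% of 13757 windows held at least as many. A match is a description of the letters only and was not tested as a binding site.

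**Figure D1:**
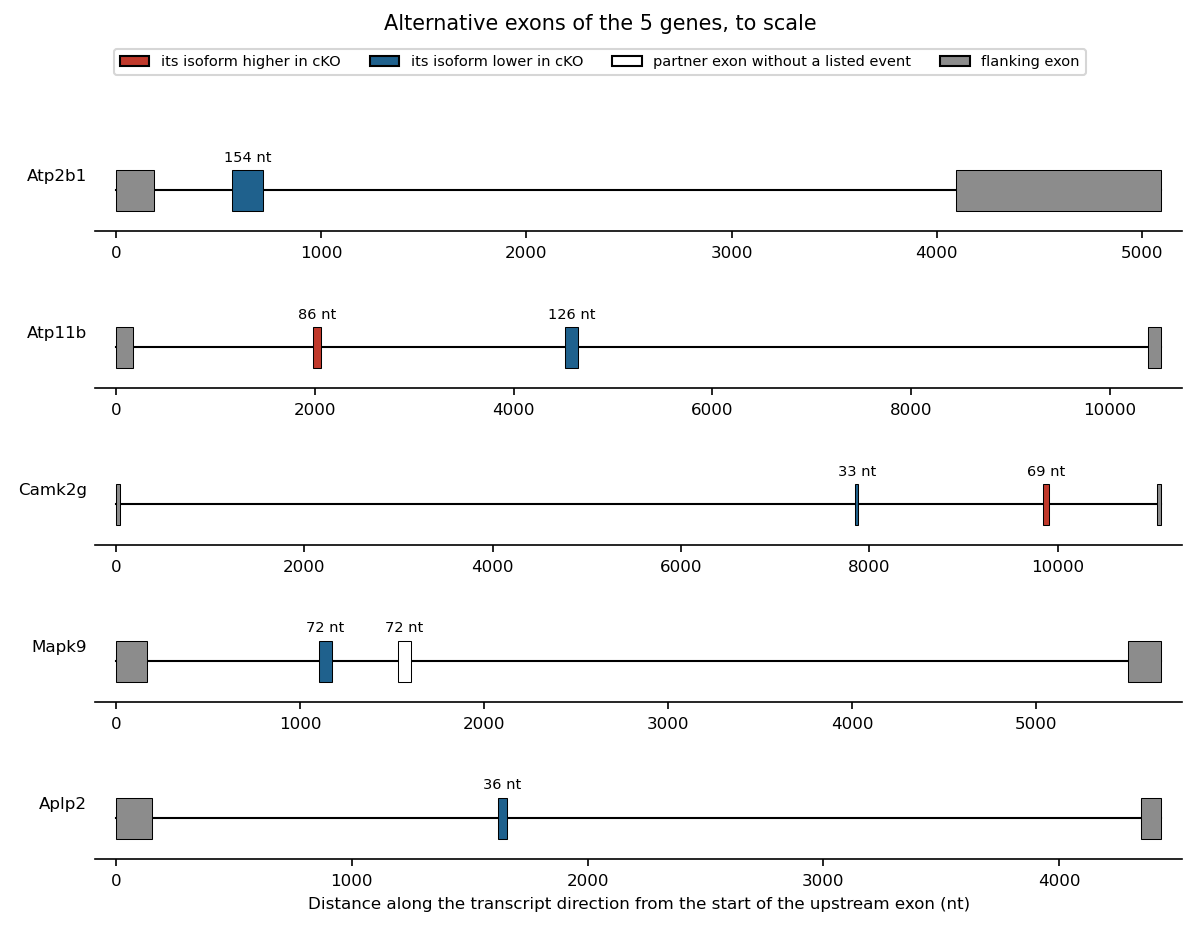
The alternative exons of the 5 genes drawn to scale along the transcript, in nt from the start of the upstream exon. Blue exons belong to isoforms listed as lower in cKO neurons. Red exons (86 nt of Atp11b, set against its 126 nt exon, and 69 nt of Camk2g) belong to isoforms listed as higher. The Mapk9 colour is from the Gad2-Cre comparison. The white exon had no listed event of its own but is the other isoform of the Mapk9 pair, so its share of that pair rose as that of the upstream exon fell.

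The values are inclusion levels, the share of an event's RNA that carries the alternative region or, for mutually exclusive exons, the isoform that the authors name first. Each level is 1 value per group pooled by the authors, so no spread over samples can be given, and library depth is unknown. Every listed event had a false discovery rate (FDR) of at most 0.05, a difference of at least 0.1 and a coverage of at least 20 in the authors' deposited tables. An event that is not listed may therefore have differed by less, been covered less or missed the FDR limit. In the Emx1-Cre comparison 8 of the 31 events of these genes were higher in cKO and 23 lower, where 48.4% of all listed events were higher. Among the Gad2-Cre events 4 of 21 were higher and 17 lower, where 41.4% of all listed events were higher. Several events of a gene count the same exon with different neighbours or ends, so they are not independent. Where forms of an exon share an end, the level of one form may also count RNA of another. Differences of at least 0.3 made up 22 of the 31 Emx1-Cre events (71%) and 16 of the 21 Gad2-Cre events (76.2%), against 25.8% and 23.4% of all events listed in those tables. The median size of the difference was 0.381 and 0.352 in the 5 genes and 0.209 and 0.202 over all listed events. Since the genes were chosen with these differences known, nothing is read from those shares. The plot of differences by gene shows that 3 of the genes had events in both directions.

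**Figure D2:**
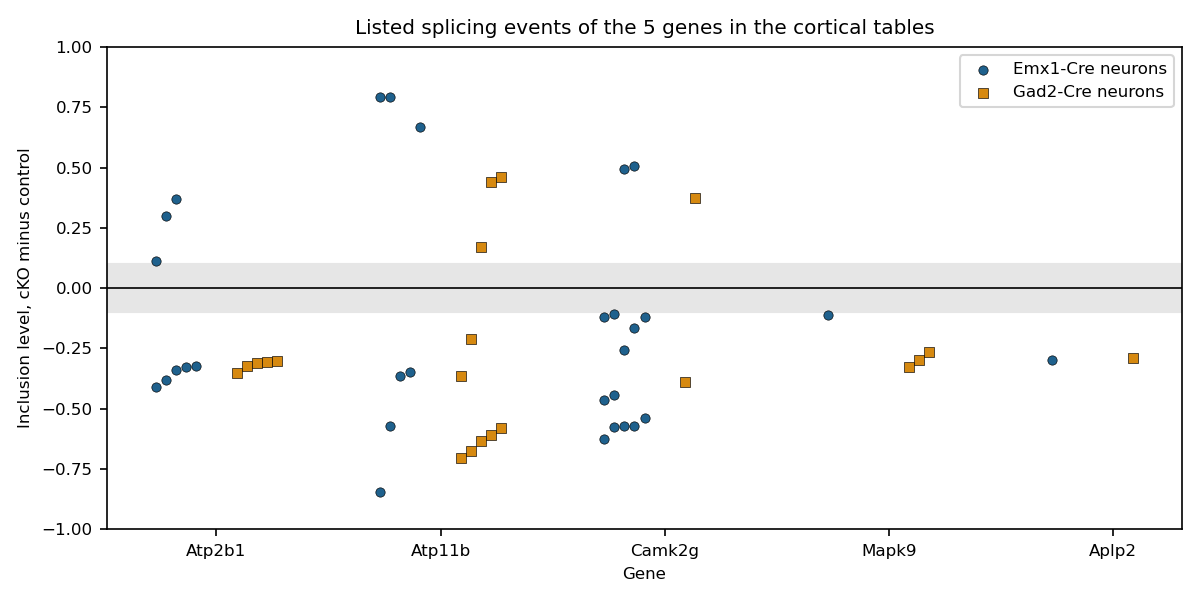
Difference in inclusion level (cKO minus control, a fraction) for each listed event of the 5 genes, with circles for Emx1-Cre and squares for Gad2-Cre neurons. The grey band marks the differences below 0.1 that the tables leave out; Mapk9 and Aplp2 lie below 0 in both comparisons, and the other genes lie on both sides of 0 except Atp2b1 in Gad2-Cre neurons.

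The calcium pump exon of Atp2b1 was used less in cKO neurons of both cortical classes. In the authors' deposited table its level was 0.0938 in Emx1-Cre cKO and 0.506 in Emx1-Cre control neurons, a difference of -0.41 (FDR 6.15e-22, coverage 238). By the same source the level was 0.274 in Gad2-Cre cKO and 0.626 in Gad2-Cre control neurons, a difference of -0.35 (FDR 5.72e-06, coverage 151). Both cKO levels thus lay below both control levels, and the Gad2-Cre cKO neurons kept more of the exon than the Emx1-Cre cKO neurons, a gap that no deposited comparison tests.

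The same pump exon was also listed with 4 other ends, over its first 87, 114 or 152 nt or over 160 nt, and all of these fell in both classes. Across these 4 the authors' deposited levels ranged over 0.0683 to 0.113 in Emx1-Cre cKO and 0.394 to 0.494 in Emx1-Cre control neurons. The Gad2-Cre levels ranged over 0.222 to 0.322 in cKO and 0.533 to 0.625 in control neurons. The event with the 87 nt end had the highest level of the 4 in each group. All of these regions begin at the same position, so their levels overlap and cannot be read as amounts of separate forms. A further 3 Atp2b1 events were mutually exclusive pairs, listed for Emx1-Cre neurons only, in which an isoform with an upstream 160 or 183 nt exon was higher in cKO. GENCODE has the 183 nt exon also in Atp2b1-209 and Atp2b1-210, which carry the pump exon. These 3 events may therefore restate skipping of the pump exon, which was not tested. The largest of them was listed at 0.943 in Emx1-Cre cKO and 0.572 in Emx1-Cre control neurons in the authors' deposited table, a difference of 0.37 (FDR 0.000246).

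The ends of the pump exon differ in the protein they encode. In the annotated transcript Atp2b1-201, skipping the exon leaves an open reading frame of 1220 codons. Inserting 154 nt gives 1176 codons and 152 nt gives 1171, because the frame shifts and a stop codon comes earlier in the last exon. The 87 and 114 nt forms keep the frame and give 1249 and 1258 codons. No Atp2b1 event was listed for the Purkinje layer or between the control neurons.

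Atp11b had the largest differences of the 5 genes, and its 126 nt exon was used least in Emx1-Cre cKO neurons. The authors' deposited table gave that exon a level of 0.0370 in Emx1-Cre cKO and 0.611 in Emx1-Cre control neurons (difference -0.57, FDR 1.23e-24, coverage 158). In Gad2-Cre neurons the authors' deposited level was 0.135 in cKO and 0.838 in control (difference -0.70, FDR 5.72e-28, coverage 117). Where the 86 nt exon lay just upstream of it, the 126 nt exon was listed at 0.114 in Emx1-Cre cKO and 0.960 in Emx1-Cre control neurons, the event with the largest difference of the gene (-0.85, FDR 1.54e-17, coverage 53). By its largest event Atp11b ranked 9 of 1044 listed genes for Emx1-Cre and 11 of 880 for Gad2-Cre neurons.

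Transcripts with only one of the 2 Atp11b exons shifted to the 86 nt exon. The authors' deposited table put the isoform with the 86 nt exon, against that with the 126 nt exon, at 0.857 in Emx1-Cre cKO and 0.0649 in Emx1-Cre control neurons (difference 0.79, FDR 1.22e-19, coverage 95.0). For Gad2-Cre neurons the same event was deposited at 0.537 in cKO and 0.0994 in control (difference 0.44, FDR 3.69e-09, coverage 53.3). Among RNA with only 1 of the 2 exons, the majority form therefore changed over in both classes, though only slightly past the middle in Gad2-Cre cKO neurons. RNA with both exons or with neither is not counted in that event. Just before the 126 nt exon, the 86 nt exon was deposited by the authors at 0.788 in Emx1-Cre cKO and 0.118 in Emx1-Cre control neurons (difference 0.67, FDR 4.57e-22, coverage 43.1). The Gad2-Cre levels of that event in the authors' deposited table were 0.400 in cKO and 0.229 in control (difference 0.17, FDR 1.11e-05, coverage 39.5). Set against skipping of both exons, however, the 86 nt exon fell in Gad2-Cre neurons, to 0.153 in cKO against 0.364 in control in the authors' deposited table (difference -0.21, FDR 5.01e-05, coverage 30). Joint use of both exons, again set against skipping of both, fell too. The authors' deposited levels were 0.0783 in Emx1-Cre cKO and 0.428 in Emx1-Cre control neurons. They were 0.109 in Gad2-Cre cKO and 0.745 in Gad2-Cre control neurons. Skipping of both was thus the larger form of that event in every group except Gad2-Cre control neurons. The direction given for the 86 nt exon thus depends on the form it is compared with.

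Without NOVA2 loss, the Emx1-Cre and Gad2-Cre control neurons already differed in Atp11b, with 5 listed events. All 5 were lower in Emx1-Cre control neurons, where 36.3% of all events in that table were higher in Emx1-Cre control neurons. For the 126 nt exon the authors' deposited levels were 0.611 in Emx1-Cre control and 0.838 in Gad2-Cre control neurons (difference -0.23, FDR 0.00156, coverage 59.9). The largest of the 5 was joint use of the 86 nt exon and a 129 nt form of the other, deposited by the authors at 0.0982 in Emx1-Cre control and 0.432 in Gad2-Cre control neurons (difference -0.33, FDR 0.000612, coverage 46). These control groups are the same ones that stand in the cKO comparisons, so the 3 tables are not independent.

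Each Atp11b choice changes where the reading frame ends. In Atp11b-201, which has neither exon, the frame is 1175 codons. The 126 nt exon ends in a tag stop codon, visible as its last 3 letters, and gives 1146 codons; the 86 nt exon shifts the frame to a stop in the next downstream exon and gives 1167. With both exons the stop lies inside the 126 nt exon after 1161 codons, and GENCODE annotates the transcript with both, Atp11b-211, for nonsense-mediated decay.

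**Figure D3:**
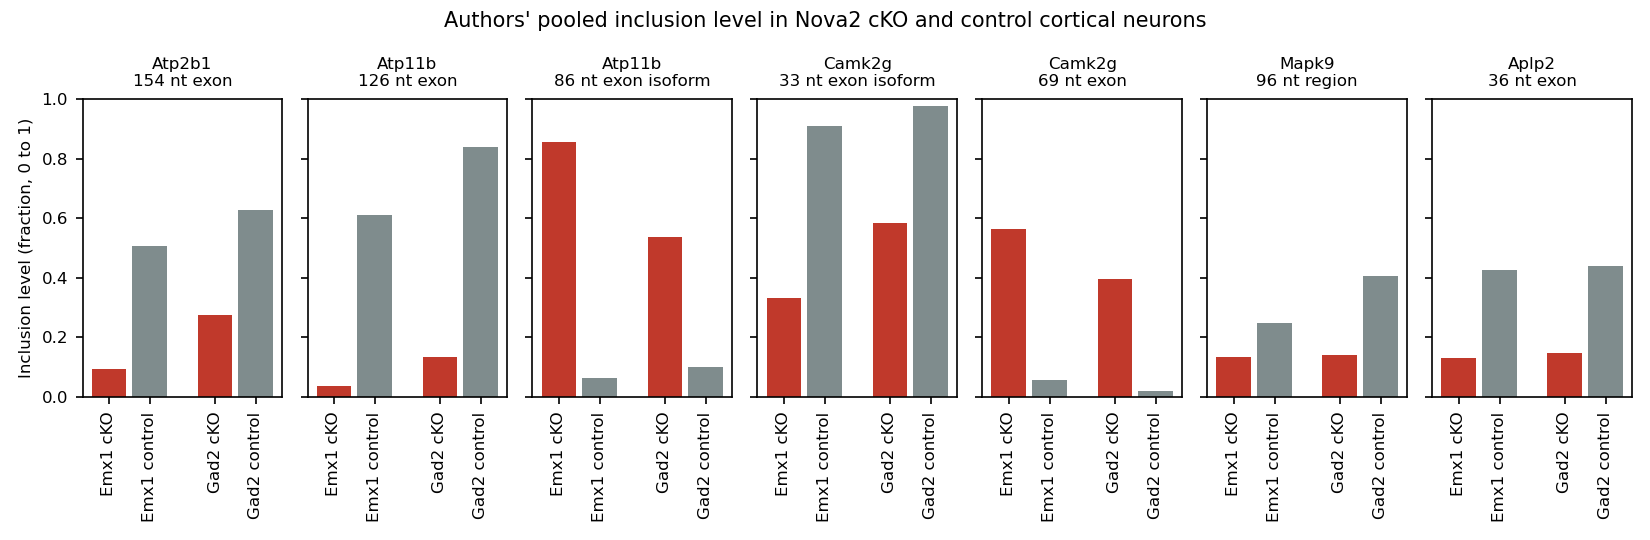
The authors' pooled inclusion level (a fraction, 1 value per group with no error) of 7 events, with cKO in red to the left of control in grey for Emx1-Cre and Gad2-Cre neurons. The 86 nt exon isoform of Atp11b and the 69 nt exon of Camk2g stand higher in cKO, and the other 5 events lower.

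Camk2g used its 33 nt exon less in cKO cortical neurons, relative to a 69 nt exon further downstream. The authors' deposited table gave the isoform with the 33 nt exon, against that with the 69 nt exon, a level of 0.332 in Emx1-Cre cKO and 0.910 in Emx1-Cre control neurons (difference -0.58, FDR 1.57e-08, coverage 62.0). The Gad2-Cre values in the authors' deposited table were 0.585 in cKO and 0.976 in control (difference -0.39, FDR 0.00555, coverage 28.0). Control neurons of both classes thus used almost only the 33 nt exon of this pair. After the 33 nt exon, the 69 nt exon was deposited by the authors at 0.565 in Emx1-Cre cKO and 0.0580 in Emx1-Cre control neurons (difference 0.51, FDR 6.65e-09, coverage 35.4). The Gad2-Cre levels of that event in the authors' deposited table were 0.396 in cKO and 0.0208 in control (difference 0.38, FDR 0.000111, coverage 22.0).

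For Emx1-Cre neurons 14 Camk2g events were listed, of which 12 were lower and 2 higher in cKO. The 2 higher ones were the 69 nt exon and its 63 nt form, which lacks the first 6 letters. The largest difference, -0.63, belonged to a mutually exclusive event of a 112 nt form of the 33 nt exon. It was deposited at 0.218 in Emx1-Cre cKO and 0.844 in Emx1-Cre control neurons in the authors' table (FDR 1.5e-08, coverage 45.5). The 112 nt form is not a GENCODE exon and begins with the 33 nt exon, so its level may also count RNA with that exon. Set against skipping of both exons, the 33 nt exon was a minor form in either group, with authors' deposited levels of 0.0706 in Emx1-Cre cKO and 0.328 in Emx1-Cre control neurons (difference -0.26, FDR 7.54e-07, coverage 99.0). Joint use of the 33 nt exon and a 27 nt piece of the 69 nt exon, again set against skipping of both, was deposited at 0.0333 in Emx1-Cre cKO and 0.152 in Emx1-Cre control neurons in the authors' table (difference -0.12, FDR 0.0121, coverage 58.0). No listed event set the 69 nt exon alone against skipping of both, so its higher level is known only relative to, or after, the 33 nt exon. The lengths of both exons are multiples of 3, and Camk2g-203 with neither, the 33 nt, the 69 nt or both exons encodes 495, 506, 518 or 529 codons up to the same stop codon.

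In the Purkinje layer Camk2g was one of 2 of the 5 genes with a listed event, and none of the 3 events was higher in group 1, where 32.2% of all events in that table were. The labels do not say which Purkinje group is the knockout, so the groups are called 1 and 2. The authors' deposited levels of the 69 nt Camk2g exon were 0.388 in group 1 and 0.529 in group 2 (difference -0.14, FDR 0.0281, coverage 109). The 63 nt form was deposited at 0.349 in group 1 and 0.491 in group 2 (difference -0.14, FDR 0.0276) in the authors' table. Both Purkinje groups lay above both cortical control groups for the 69 nt exon, a comparison across age, tissue and tables that was not tested.

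Mapk9 shifted within its pair of mutually exclusive exons in Gad2-Cre neurons. The 2 exons are 72 nt each and share 47 of 72 letters (65.3%) in the alignment without gaps, and a transcript with either encodes 381 codons. The authors' deposited table put the isoform with the upstream exon at 0.274 in Gad2-Cre cKO and 0.571 in Gad2-Cre control neurons (difference -0.30, FDR 0.00267, coverage 112). Another event of this pair had the largest Mapk9 difference, with authors' deposited levels of 0.249 in Gad2-Cre cKO and 0.578 in Gad2-Cre control neurons (difference -0.33, FDR 0.00266, coverage 45). Neither was listed for Emx1-Cre neurons. A 96 nt region, the upstream exon with 24 nt more at its 3′ end, was listed in both classes and fell in each. The authors' deposited levels were 0.134 in Emx1-Cre cKO and 0.247 in Emx1-Cre control (difference -0.11, FDR 0.046, coverage 67.3), and 0.142 in Gad2-Cre cKO and 0.406 in Gad2-Cre control neurons (difference -0.26, FDR 0.000366, coverage 45). The Emx1-Cre event lies just inside both limits of the table. GENCODE annotates no exon of this 96 nt extent. Because the 96 nt region starts where the upstream 72 nt exon starts, its levels may include RNA with that exon. They therefore do not give the use of a separate 96 nt exon. Whether they restate the choice within the mutually exclusive pair was not tested. In the Purkinje layer a different Mapk9 exon of 241 nt (chr11:49854737-49854977) was deposited by the authors at 0.0793 in group 1 and 0.190 in group 2 (difference -0.11, FDR 1.6e-12, coverage 249). With that exon the frame stops after 124 codons.

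Aplp2 had 1 event in each cortical table, the 36 nt exon, and its levels were close in the 2 neuron classes. The authors' deposited table gave 0.130 in Emx1-Cre cKO and 0.427 in Emx1-Cre control neurons (difference -0.30, FDR 1.52e-15, coverage 263). For Gad2-Cre neurons the authors' deposited levels were 0.148 in cKO and 0.439 in control (difference -0.29, FDR 4.18e-07, coverage 159). The exon keeps the frame, with 707 codons in Aplp2-209 when it is used and 695 when it is skipped; the protein without it is known to carry a chondroitin sulfate chain at the new junction. Between control neurons 1 other Aplp2 event was listed, a 79 nt region that is not a GENCODE exon but the first 79 nt of the 168 nt exon of the Kunitz protease inhibitor domain. No event of the full 168 nt exon was listed. The 79 nt region had authors' deposited levels of 0.790 in Emx1-Cre control and 0.529 in Gad2-Cre control neurons (difference 0.26, FDR 0.0156, coverage 51.2). The full 168 nt exon begins with the same 79 nt, so these levels may count RNA with the full exon as well. They cannot be read as shares of RNA with the shortened exon. Shortened to 79 nt, the exon would end the frame of Aplp2-209 after 342 codons, whereas at full length it gives 751.

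Of the events of the 5 genes, 16 were listed in both cortical tables, which is 51.6% of the 31 Emx1-Cre events and 76.2% of the 21 Gad2-Cre events. Over all genes 823 events were in both, 30.7% of the Emx1-Cre events and 41.8% of the Gad2-Cre events. All 16 had the same direction in both tables, as did 97.4% of all shared events. Of the 16, 7 belonged to Atp11b, 5 to Atp2b1, 2 to Camk2g and 1 each to Mapk9 and Aplp2. The difference was larger in Emx1-Cre neurons for 12 and in Gad2-Cre neurons for 4. Several of these events count the same exon, and the matching share over all shared events was not computed. The difference between classes was not tested, so nothing is read from these 2 counts.

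Other genes had events with similar levels. Likeness was the Euclidean distance over 4 pooled levels, cKO and control in both cortical classes, among events of the same type listed in both tables. Nearest to the Atp2b1 exon were events of Agrn (0.112), Epb4.1l3 (0.115) and Kif21a (0.121). The Aplp2 exon was nearest to events of Cnot2 (0.0305), Elf2 (0.0752) and Ptk2 (0.0842). For the 126 nt exon of Atp11b after the 86 nt exon they were Aff3 (0.0638), Ccdc64 (0.0922) and Sorbs2 (0.126). The 96 nt region of Mapk9 had Kdm1a (0.0808), Esyt2 (0.0877) and Bcl11b (0.106) as neighbours. The Camk2g pair had Lmtk3 (0.174), Adam22 (0.221) and Ptk2 (0.228), the widest distances of the 5. Only 108 genes with a mutually exclusive event were compared for Camk2g, against 181 or 182 genes with a cassette event for the others. The widths of these distances are therefore not on equal terms.

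Relatives of the 5 genes were counted in lists that include those genes. Of these, 2 of 19 calcium and sodium pump genes, 3 of 20 flippase and scramblase genes, 6 of 20 calmodulin-dependent kinase and phosphatase genes, 7 of 33 MAP kinase pathway genes and 2 of 22 genes of the amyloid precursor family and its partners had an Emx1-Cre event. By the largest event of each gene, 1, 0, 5, 4 and 1 of them were higher in cKO, where 51.1% of all 1044 listed genes were. The list medians of that difference were 0.15, -0.22, 0.16, 0.12 and -0.03, and the median over all listed genes was 0.10. The Gad2-Cre table listed 3, 3, 2, 7 and 1 genes of these lists, of which 0, 1, 1, 3 and 0 were higher in cKO, where 48.1% of all 880 listed genes were. Their medians were -0.35, -0.14, -0.04, -0.30 and -0.29, and the median over all listed genes was -0.11.

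Among those relatives, Slc8a1, the sodium-calcium exchanger, had a 21 nt exon with authors' deposited levels of 0.750 in Emx1-Cre cKO and 0.0474 in Emx1-Cre control neurons. A 104 nt exon of Slc8a1 was lower in Gad2-Cre cKO, with authors' deposited levels of 0.314 in Gad2-Cre cKO and 0.735 in Gad2-Cre control neurons. Slc8a1 thus had events in both directions. The flippase gene Atp8a1 had a 45 nt exon deposited by the authors at 0.920 in Gad2-Cre cKO and 0.688 in Gad2-Cre control neurons, at a low coverage of 23.5. Ppp3cb, a catalytic subunit of the calmodulin-dependent phosphatase calcineurin, had a 27 nt exon that the authors' deposited table put at 0.464 in Emx1-Cre cKO and 0.00754 in Emx1-Cre control neurons. The exons named for Atp8a1 and Ppp3cb were higher in cKO, while a 63 nt exon of the scramblase gene Ano6 was lower, at 0.195 in Emx1-Cre cKO and 0.418 in Emx1-Cre control neurons in the authors' deposited table. In the MAP kinase list the largest differences were those of Mink1 and Map2k5 in Gad2-Cre neurons, both at low coverage (22 and 20) and both lower in cKO. Mink1, a kinase of the JNK pathway, was deposited by the authors at 0.251 in Gad2-Cre cKO and 0.833 in Gad2-Cre control neurons. Map2k5, the kinase that activates ERK5, was deposited by the authors at 0.492 in Gad2-Cre cKO and 1.0 in Gad2-Cre control neurons. Map3k12, a kinase upstream of JNK, had an 87 nt exon with authors' deposited levels of 0.533 in Emx1-Cre cKO and 0.846 in Emx1-Cre control neurons. Its coverage was also low, at 29. Map4k4, another kinase upstream of JNK, was deposited at 0.818 in Emx1-Cre cKO and 0.486 in Emx1-Cre control neurons by the authors.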

How the data were processed

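RNA of sorted cortical neurons and dissected Purkinje layer was sequenced. Splicing levels were computed by the authors with Quantas (build mm10), per the labels. Also named in the submitters' processing notes are edgeR and kallisto, without a stated role. The aligner and strandedness are not given in the sources used here. Per event, the 4 deposited tables hold, per the file headers, the authors' inclusion level in 2 groups as a fraction from 0 to 1. The tables also hold their difference, a signed score from the authors, the authors' p-value and FDR, and a coverage signal, 1 per event, without a stated definition. Deposited interval lists, whose score field the authors left at 0, gave exon positions only.

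The deposited difference is group 1 minus group 2 and matched the levels within 3e-08. It was turned to cKO minus control for the cortical tables, whose control levels were identical to those in the table of controls (within 1e-06 at 307 and 323 shared events). The labels do not say whether samples of a group were separate animals, so the authors' FDR may measure technical spread. No test was run, since the levels are pooled.

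Rows were matched by gene symbol in Python 3.11.15, and only the tetramer counter was tested, on simulated sequences. Frames and exon sequences came from GENCODE M21, as no intron sequence was used beyond its transcripts. All 5 genes were described, with the values of the largest event per gene and table and of a part of the other events. Up to 4 relatives per list were eligible by size of difference. The genes, lists and rules were chosen with earlier results of these data known. Alternatives were stricter limits, a coverage minimum of 50, 1 event per region, cassette exons alone, another lead event and a 100 nt intron window.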

Additional observations from a re-analysis of the deposited data

How the results depend on the processing

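Of 38 recomputed values, 26 counted as the same, 12 moved and none turned its direction. A count was the same within 1.5 times, a share within the 95% binomial interval of its main value (which treats events as independent), and a difference only where the same event was chosen. The share of events higher in cKO was 15% among cassette and tandem cassette exons, against 25.8% of all Emx1-Cre events, and 12.5% against 19% for Gad2-Cre neurons; both lay inside those wide intervals. Counting 1 event per distinct region left 20 of the 31 Emx1-Cre events. A coverage minimum of 50 left 12 of the 21 Gad2-Cre events. In the Purkinje layer an FDR limit of 0.01 left 1 of 3 events and a difference limit of 0.2 left 0. Taking the best-covered event of a gene in place of that with the largest difference gave, for Emx1-Cre neurons, -0.38 for Atp2b1 (against -0.41), -0.57 for Atp11b (against -0.85) and -0.26 for Camk2g (against -0.63). It gave -0.30 for Mapk9 in Gad2-Cre neurons (against -0.33) and -0.32 for Atp11b between controls (against -0.33). With a 100 nt window the tetramers numbered 1 for Atp2b1 (against 2), 2 for Aplp2 (against 4) and 2 for Mapk9 (against 4); for these moved values the cause is the construction of each alternative, which uses fewer events, another event or a shorter window.

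No paired analysis was possible because the levels are pooled over the samples of a group. For the same reason no sample could be left out. The planned windows of 200 nt of intron on both sides were not run for most exons, since only transcript sequence was used. Libraries were not compared in depth, and low coverage (21 to 30) underlies several Atp11b and Camk2g events in Gad2-Cre neurons.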
